A study of Mus musculus with 4 samples.

Results

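Endothelial cells without detected Ackr1 were described among single cells sorted from the mouse mammary gland. A barcode was a member when it held at least 6 unique molecular identifiers (UMIs, 1 per captured transcript) summed over Pecam1, Cdh5, Egfl7, Emcn and Esam. It also had to hold under 30 collagen and matrix UMIs per 10000 (Col1a1, Col1a2, Col3a1, Dcn and Lum) and 0 UMIs of Ackr1. The rule found 619 members among 36884 barcodes. The strain was C57BL/B6, and each of the 4 libraries was control or Zeb1 MSKO at 8 or 9 weeks of age, with 1 library for each genotype and age. The labels do not expand MSKO, name the driver of the deletion, give the sort markers or say how many animals went into a library. The design text says that the libraries were made to compare the heterogeneity of control and Zeb1 MSKO mammary cells.

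Endothelial cells line blood and lymphatic vessels, and their adherens junctions are built on VE-cadherin, the product of Cdh5. Lymphatic endothelium is set up by the transcription factor Prox1 and carries the hyaluronan receptor Lyve1 and the VEGF-C receptor Flt4, while blood capillaries carry the VEGF receptor Flt1 and the lipase anchor Gpihbp1. Ackr1, a non-signalling chemokine receptor, marks venules and is found at high level in the high endothelial venules through which lymphocytes enter lymph nodes. Zeb1 encodes a zinc-finger repressor of epithelial junction genes.

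The members were spread unequally over the libraries. Control and Zeb1 MSKO held 313 and 287 members at 8 weeks but 12 and 7 at 9 weeks. These are 3.20% (Wilson 95% interval 2.87 to 3.56), 2.96% (2.64 to 3.32), 0.157% (0.0900 to 0.275) and 0.0716% (0.0347 to 0.148) of the libraries' barcodes, in the order control at 8 weeks, Zeb1 MSKO at 8 weeks, control at 9 weeks and Zeb1 MSKO at 9 weeks. All lists of 4 values below keep this order. The mean share was 1.68% ± 2.15 (SD, n = 2) in control and 1.52% ± 2.04 (SD, n = 2) in Zeb1 MSKO. That difference of -0.161 percentage points had a two-sided exact permutation p of 0.667, and 2 libraries against 2 cannot go below 0.333. The 2 libraries of a genotype are its 2 ages, so the SDs and this p hold the gap between ages. They do not measure spread within an age. At each age the share was lower in Zeb1 MSKO, with overlapping intervals. A sort can set such shares. Each age has 1 library per genotype, so age and preparation cannot be told apart.

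The summed member UMIs were 2141450, 1688855, 76288 and 56171, so that 3 counts correspond to 1.40, 1.78, 39.3 and 53.4 CPM (counts scaled to 1000000 UMIs of the library's members). Intervals below are exact Poisson 95% intervals and cover counting error only. The median member held 5694, 4695, 4946 and 7205 UMIs, against 9403, 6376, 10214 and 10529.5 for the median barcode of each library. No member barcode sequence occurred in 2 libraries. A neighbour-based score called 41, 34, 1 and 2 members doublets. Just below the UMI threshold, 58 barcodes with 5 UMIs of the 5 genes had Cldn5 in 93.1% of cases, against 98.5% of the 68 members with 6. At the collagen limit, 11 members held 20 to 30 UMIs per 10000, and 2 barcodes held 30 to 50. Ackr1 was detected in 12, 11, 1 and 4 otherwise qualifying barcodes.

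The sequences from 250 bases before to 50 after the transcription start are shown for 4 genes that bear on the vessel types below. In members, Prox1 and Marco had higher CPM at 8 weeks and Flt1 at 9 weeks, and the VEGF receptor Kdr was detected at both ages. They come from RefSeq (GRCm38.p6, the assembly also called mm10) and run 5′ to 3′ on the gene's minus strand. Capitals mark the ETS core GGAAGT or the SOX core AACAAT on either strand. They lie at chr1:190170778-190171077 (Prox1), chr1:120504975-120505274 (Marco), chr5:75978406-75978705 (Kdr) and chr5:147725962-147726261 (Flt1).
Prox1: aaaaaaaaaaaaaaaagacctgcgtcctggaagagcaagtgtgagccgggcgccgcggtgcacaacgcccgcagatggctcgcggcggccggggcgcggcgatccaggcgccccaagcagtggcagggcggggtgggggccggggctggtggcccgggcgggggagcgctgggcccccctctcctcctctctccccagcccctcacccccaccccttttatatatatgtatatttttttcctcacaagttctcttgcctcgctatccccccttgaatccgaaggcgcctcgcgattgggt
Marco: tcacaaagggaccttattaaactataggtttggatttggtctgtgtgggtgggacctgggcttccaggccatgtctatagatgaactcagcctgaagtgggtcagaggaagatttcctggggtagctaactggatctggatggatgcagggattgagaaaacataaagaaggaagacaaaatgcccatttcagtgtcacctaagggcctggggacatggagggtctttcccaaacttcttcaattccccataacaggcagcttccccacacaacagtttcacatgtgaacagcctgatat
Kdr: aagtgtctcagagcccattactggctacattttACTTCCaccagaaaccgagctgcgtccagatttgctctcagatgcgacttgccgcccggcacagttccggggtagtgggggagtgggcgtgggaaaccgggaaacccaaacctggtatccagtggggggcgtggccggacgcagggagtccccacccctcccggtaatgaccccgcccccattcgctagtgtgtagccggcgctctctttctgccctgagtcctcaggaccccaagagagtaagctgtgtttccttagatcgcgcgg
Flt1: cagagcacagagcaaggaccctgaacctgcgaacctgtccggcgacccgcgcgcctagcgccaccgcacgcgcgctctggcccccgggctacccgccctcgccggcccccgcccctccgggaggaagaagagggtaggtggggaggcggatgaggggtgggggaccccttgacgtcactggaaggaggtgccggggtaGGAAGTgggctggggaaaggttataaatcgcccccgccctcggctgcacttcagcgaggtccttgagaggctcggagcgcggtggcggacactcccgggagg
Kdr and Flt1 each held 1 ETS core, and neither core occurred in the windows of Prox1 and Marco. Among 27025 promoters of this length, 24.1% held the ETS core and 10.9% the SOX core. Of the 31 pan-endothelial genes listed outside the rule, 17 had a promoter in the table and 6 of these held the ETS core. Of the 10 lymphatic genes listed, 8 had one and 1 held it.

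The label of endothelial cells held for genes that the rule did not use. Cldn5, the tight junction claudin of endothelium, stood at 1949, 1992, 1560 and 4148 CPM. In the non-endothelial barcodes of the 8-week libraries it stood at 7.31 and 15.1 CPM. After thinning every barcode to 2500 UMIs, Cldn5 was detected in 92.0% and 93.4% of 8-week members, and in 1.15% and 2.31% of non-endothelial barcodes under the collagen limit. Kdr was at 278, 310, 275 and 231 CPM, and the angiopoietin co-receptor Tie1 at 97.6, 80.5, 131 and 125 CPM. All 31 genes of the pan-endothelial list were detected in members of both 8-week libraries. Ptprc, the pan-leukocyte phosphatase CD45, had 0 UMIs in members of every library. The 8 leukocyte markers summed to 25.2, 30.8, 0 and 35.6 CPM. The 8 fibroblast markers outside the rule summed to 14.9, 59.8, 65.5 and 178 CPM. Epithelial transcripts were more abundant, with 11 luminal markers at 5161, 4410, 5309 and 4415 CPM and 7 basal markers at 463, 1009, 1770 and 89.0 CPM.

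Because the same cells chose the members, their difference from other barcodes is a description without a test. Genes entered at a mean of 100 CPM or more in the 8-week members, so most genes low in members were left out. Of these 1489 genes, 88 (5.91%) were over 4-fold higher than in non-endothelial barcodes in each of the 3 libraries with at least 10 members. Another 4 (0.269%) were over 4-fold lower. Because of the entry limit, the numbers higher and lower cannot be weighed against each other. At 8 weeks alone 183 (12.3%) were higher. The 20 genes with the largest mean ratio in the 3 libraries included Myct1, Apold1, Kdr, Icam2, Cd36, Clec1a, S1pr1, Ptprb, Fabp4, Rasip1, Gimap6 and Plvap. S1pr1, the sphingosine phosphate receptor of endothelium, stood at 219, 284, 288 and 142 CPM. Plvap, the protein of fenestral diaphragms, stood at 571, 514, 1206 and 356 CPM. The scavenger receptor and fatty acid transporter Cd36 stood at 358, 503, 655 and 872 CPM. These 3 genes were at 1.59 to 6.74 CPM in the non-endothelial barcodes at 8 weeks.

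Members at 8 weeks carried lymphatic transcripts, and members at 9 weeks those of blood vessels. Lyve1 stood at 944 CPM (904 to 986) in the control library and 1010 CPM (962 to 1059) in the Zeb1 MSKO library at 8 weeks, and had 0 UMIs at 9 weeks, where 3 counts would be 39.3 and 53.4 CPM. Prox1 stood at 255, 290, 0 and 142 CPM. Mmrn1, a multimerin of lymphatic endothelium, stood at 240, 293, 0 and 214 CPM. Flt4 was at 85.0, 62.8, 0 and 125 CPM. In the Zeb1 MSKO library at 9 weeks, 1 of the 7 members was lymphatic by the count below. Flt1 ran the other way, with 17.7, 43.8, 472 and 409 CPM, and so did Gpihbp1, with 42.5, 69.9, 931 and 1015 CPM. Fabp4, a fatty acid carrier of capillary endothelium, stood at 2238, 1956, 9962 and 12480 CPM. The tip-cell proteoglycan Esm1 had 0 UMIs at 8 weeks and 197 and 35.6 CPM at 9 weeks.

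**Figure D1:**
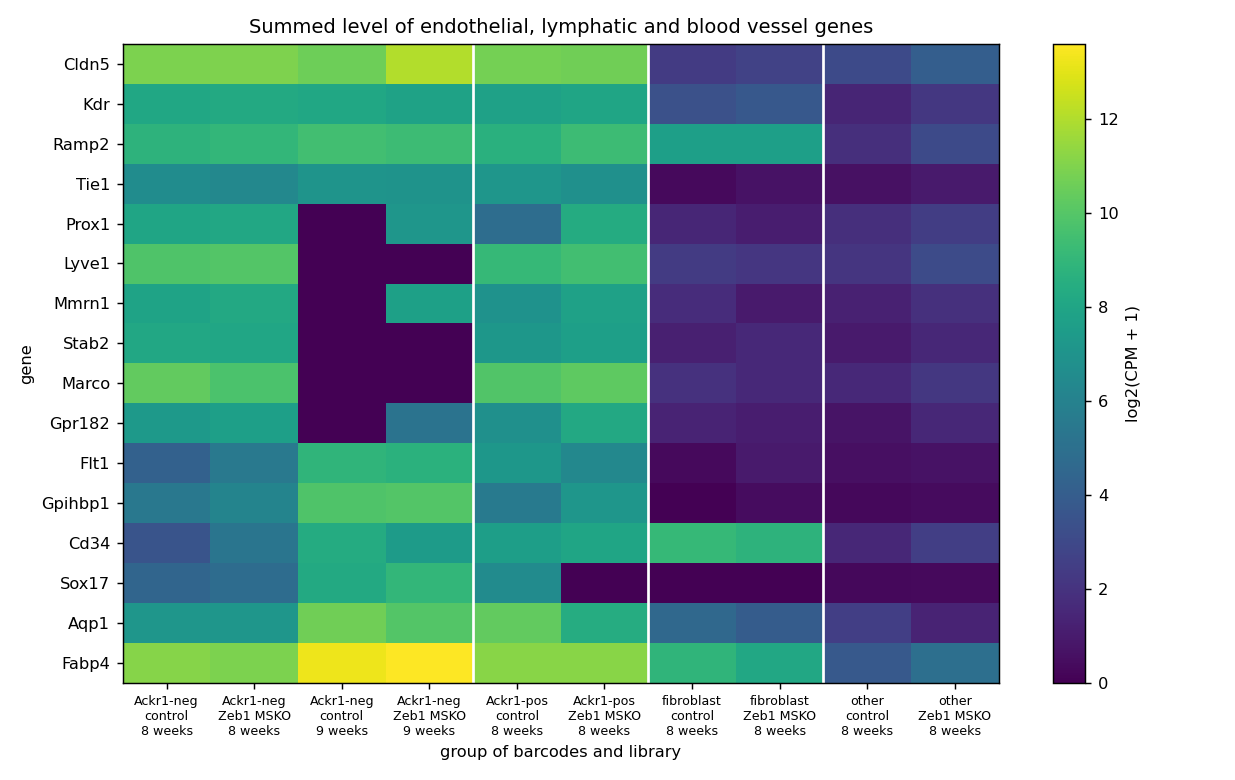
Summed level, as log2(CPM + 1) in colour, of 16 genes (rows) in Ackr1-negative members of all 4 libraries and in Ackr1-positive, fibroblast-gated and other barcodes of the 8-week libraries (columns). Lyve1, at 944 and 1010 CPM at 8 weeks, is at 0 in both 9-week columns, where Flt1 and Gpihbp1 are brighter than at 8 weeks.

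Single barcodes were then counted by such genes. A barcode was counted as lymphatic when it held at least 3 UMIs summed over 6 genes (Prox1, Lyve1, Mmrn1, Flt4, Reln and Nts), and as blood vascular with at least 3 UMIs over 8 genes (Flt1, Gpihbp1, Sox17, Cd34, Aqp1, Vwf, Gja4 and Esm1). These sets were settled after their values were seen, so the counts describe the split above and are no second support for it. In control at 8 weeks 258 members were lymphatic only, 12 blood vascular only, 21 both and 22 neither. In Zeb1 MSKO at 8 weeks the numbers were 246, 12, 12 and 17. All 12 control members at 9 weeks were blood vascular only. In Zeb1 MSKO at 9 weeks 6 were blood vascular only and 1 was lymphatic only. Among 17724 non-endothelial barcodes under the collagen limit at 8 weeks, 1.19% passed as lymphatic only and 0.649% as blood vascular only. Without called doublets and barcodes over 10% mitochondrial counts, 224 of 271 and 217 of 253 members at 8 weeks were lymphatic only. The same removal left 11 control and 5 Zeb1 MSKO members at 9 weeks, all blood vascular only, so the 1 lymphatic barcode at 9 weeks was a called doublet.

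**Figure D2:**
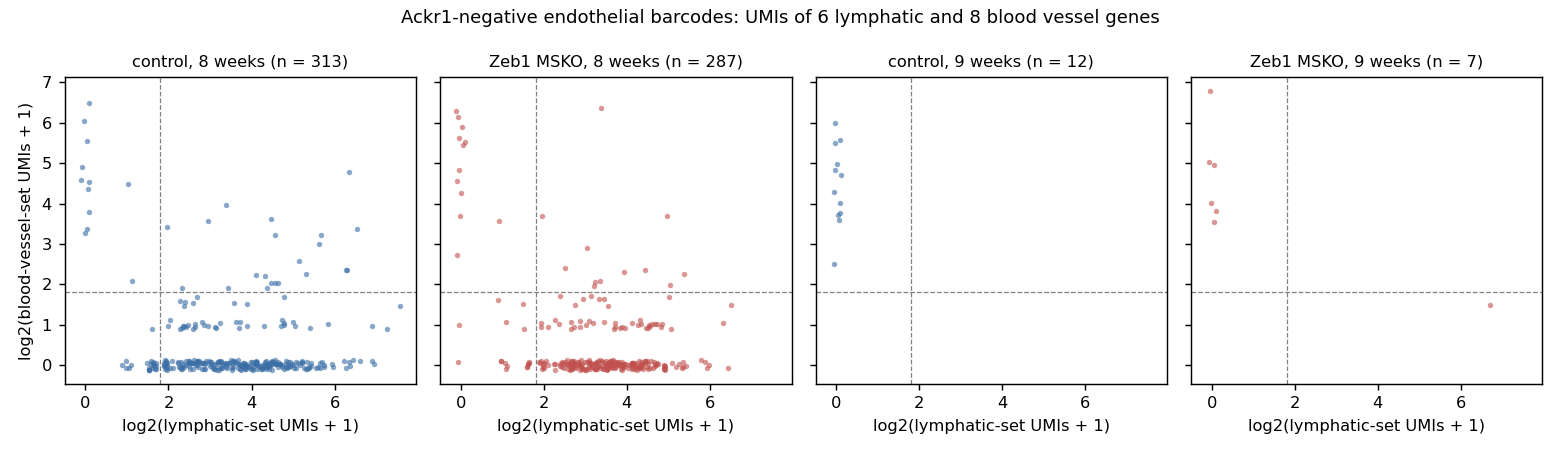
Each point is 1 Ackr1-negative barcode, with log2(UMIs + 1) of the 6 lymphatic genes across and of the 8 blood vessel genes up, 1 panel per library, points jittered, and dashed lines at the limit of 3 UMIs. Most of the 313 and 287 points at 8 weeks lie low and to the right, and all 12 points of control at 9 weeks lie upper left.

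Several scavenger receptors and related genes, named after their values were seen, were detected mainly at 8 weeks. Marco, a scavenger receptor known from macrophages and from the lymphatic endothelium of lymph node sinuses, stood at 1306 CPM (1258 to 1355) in the control library and 870 CPM (826 to 915) in the Zeb1 MSKO library at 8 weeks, and at 0 in both 9-week libraries. Stab2, a hyaluronan scavenger receptor of sinusoidal endothelium, stood at 280, 261, 0 and 0 CPM. Msr1, the class A scavenger receptor, stood at 133, 134, 0 and 0 CPM. Gpr182, an atypical chemokine receptor of sinusoidal and lymphatic endothelium, stood at 164, 202, 0 and 35.6 CPM. Coagulation factor VIII, F8, stood at 268, 262, 0 and 0 CPM, and the endothelial protein C receptor Procr at 1626, 1036, 39.3 and 89.0 CPM. Both 8-week libraries were high for each of these genes. The labels name the mammary gland as the only tissue, and the sources used here do not say whether a lymph node within the gland was removed before the sort. Values of genes shared with lymph node vessels cannot be assigned to either tissue.

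Marco divided the 8-week members. After thinning to 2500 UMIs it was detected in 81 of 313 control and 67 of 287 Zeb1 MSKO members, whose median depths before thinning were 5424 and 4630 UMIs, against 5712.5 and 4731.5 in members without it. In the non-endothelial barcodes under the collagen limit, 0.345% and 0.607% held a Marco UMI at that depth. Lyve1 was detected in 87.7% of control members with Marco and 43.5% of those without. The shares were 94.0% and 57.3% in Zeb1 MSKO. Msr1 was detected in 37.0% against 13.8% and 40.3% against 17.7%. The opposite held for Ackr4, a chemokine-scavenging receptor known from the lymphatic ceiling of the lymph node's subcapsular sinus, with 4.94% against 23.7% in control and 8.96% against 24.5% in Zeb1 MSKO. Cd36 was detected in 13.6% against 45.7% and 32.8% against 50.5%, and the neuropeptide precursor Nts in 8.64% against 32.3% and 7.46% against 21.4%. The barcodes were split by a measured gene, so these shares carry no test. Both libraries had the same order for the genes above. Mmrn1 ran opposite to Lyve1, with 32.1% against 46.1% in control and 34.3% against 51.4% in Zeb1 MSKO. The order differed between the libraries for Procr (86.4% against 69.0% and 55.2% against 58.2%), Madcam1 (9.88% against 16.4% and 17.9% against 15.5%) and Zeb1 (11.1% against 12.5% and 22.4% against 18.2%).

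Members were then set beside the Ackr1-positive endothelial barcodes of the same libraries, 12 in control and 11 in Zeb1 MSKO at 8 weeks. Of 2731 genes at a mean of 50 CPM or more over both kinds of barcode, 48 (1.76%) were over 2-fold higher in the members in both 8-week libraries and 59 (2.16%) over 2-fold lower. Glycam1, a mucin-like L-selectin ligand known from high endothelial venules and from milk, stood at 1950 and 2075 CPM in members and at 80464 and 25520 CPM in Ackr1-positive barcodes. It was at 56.7 and 52.7 CPM in non-endothelial barcodes. The thinned share of members with Glycam1 was 26.2% and 26.5%, against 1.98% and 3.77% of non-endothelial barcodes under the collagen limit. P-selectin, Selp, was at 31.3 and 65.1 CPM in members and at 1774 and 269 CPM in Ackr1-positive barcodes. The lymphoid chemokine gene Ccl21a was at 117 and 371 CPM against 11795 and 1521 CPM. Ccl21a has near-identical copies, among which counting may split reads.

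On the higher side, the 10 largest mean ratios belonged to Ccl20, Nts, Ltf, Itga9, Tpm2, Stmn1, Gdf10, Acta2, Cxcl14 and Igfbp5, in this order. Ltf and Acta2 are also among the luminal and basal epithelial markers listed. Nts stood at 1117 and 548 CPM in members against 9.29 and 47.5 CPM in Ackr1-positive barcodes. Itga9, an integrin of lymphatic valves, stood at 100.4 and 112 CPM against 27.9 and 0 CPM. Gdf10, a ligand of the BMP family, stood at 139 and 142 CPM against 18.6 and 31.7 CPM. The Ackr1-positive values of Nts, Itga9 and Gdf10 rested on few UMIs, from 12 and 11 barcodes. Lyve1 and Marco did not separate the groups in this way, with 557 and 713 CPM of Lyve1 and 975 and 1188 CPM of Marco in Ackr1-positive barcodes. When Ackr1-positive barcodes needed 3 UMIs of Ackr1, only 6 and 1 remained at 8 weeks, and the counts became 260 higher and 162 lower.

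For the genotype, the targeted gene was checked first. Zeb1 stood at 58.8 CPM (49.0 to 70.1) in control members and at 65.7 CPM (54.1 to 79.1) in Zeb1 MSKO members at 8 weeks, from 126 and 111 UMIs. At 9 weeks it stood at 13.1 and 142 CPM in 12 and 7 members, where 3 counts are 39.3 and 53.4 CPM. Zeb1 mRNA was thus not lower in Zeb1 MSKO members at 8 weeks. The 9-week counts were too few for a comparison, with control below the level of 3 counts. The sources used here do not say which part of the gene was deleted, and a 3′ count outside that part checks nothing. The related gene Zeb2 stood at 41.1, 45.0, 0 and 35.6 CPM.

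With 1 library per genotype at 8 weeks there is no replicate check and no test. The log2 ratios below are of CPM with a prior count of 2, Zeb1 MSKO over control. Of 5376 genes at a mean of 20 CPM or more, 46 (0.856%) were over 2-fold higher in Zeb1 MSKO and 33 (0.614%) over 2-fold lower, 1.47% either way. The median of all genes was 0.00.

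**Figure D3:**
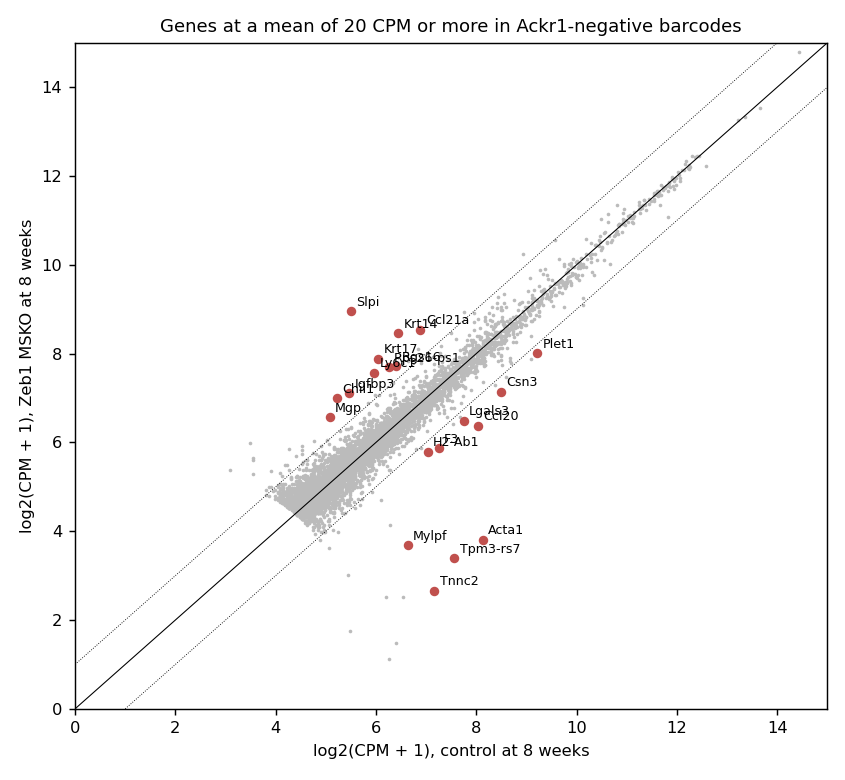
Each point is 1 of 5376 genes, with log2(CPM + 1) in Ackr1-negative members of the control (across) and Zeb1 MSKO (up) libraries at 8 weeks; the solid line is equality, the dotted lines 2-fold. The 20 labelled genes are the 10 highest and 10 lowest ratios by the naming rule, from Slpi at 3.45 to Tnnc2 at -4.49.

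At 8 weeks the pan-endothelial, lymphatic, capillary, arterial and venous lists had medians of 0.06 to 0.32, and of 0.02 to 0.13 after thinning. Counting error put ± 0.08 to 0.18 on the medians before thinning. The pan-endothelial list had a median log2 ratio of 0.06 over 30 genes, with 3 past 2-fold higher (Cd34, Clec14a and Flt1) and 0 lower. Flt1, with a ratio of 1.26, had 38 and 74 UMIs, of which 1 Zeb1 MSKO barcode held 19, and its ratio was -0.02 after thinning. The lymphatic list had a median of 0.10 over 10 genes, with Ccl21a past 2-fold higher and Nts lower. With an endothelial threshold of 10 UMIs the lymphatic median was -0.099. Of the 627 Ccl21a UMIs in Zeb1 MSKO, 431 lay in 1 barcode. Nts had 2392 and 926 UMIs and was detected in 30.7% and 20.9% of members before thinning, with a ratio of -1.03. The capillary, arterial and venous lists had medians of 0.19, 0.32 and 0.26, which were 0.07, 0.12 and 0.02 after thinning.

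The tip cell and angiogenic list had a median of -0.41 over 6 genes, with 4 ratios under 0 and 2 genes past 2-fold higher. Angpt2, the vessel-destabilizing angiopoietin, stood at 170 and 94.7 CPM in control and Zeb1 MSKO members, a ratio of -0.84, against 0.63 in non-endothelial barcodes. Adm, the vasodilator adrenomedullin, stood at 363 and 212 CPM (-0.77), and the urokinase receptor Plaur at 186 and 108 CPM (-0.78). The genes past 2-fold higher were Igfbp3 and Pgf. Pgf, a placental growth factor that binds Flt1, stood at 10.7 and 47.4 CPM from 23 and 80 UMIs, of which single barcodes held 11 and 17. Its ratio was 2.04, against 0.11 in non-endothelial barcodes. The list of VEGF and angiopoietin ligands and receptors had a median of 0.15 over 9 genes, with Pgf, Nrp1 and Flt1 past 2-fold higher and 0 past 2-fold lower. After thinning the list's median was -0.024, and the ratios of Nrp1 and Pgf were 0.34 and 1.74.

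Genes of antigen presentation were lower in Zeb1 MSKO members at 8 weeks. All 13 genes of the list had a ratio under 0, with a median of -0.36. The list's median was -0.37 in non-endothelial barcodes of the same libraries and -0.08 in fibroblast-gated ones. The class I pathway genes had the smaller ratios, with B2m at 12986 and 11736 CPM (-0.15), H2-K1 at 3940 and 3343 CPM (-0.24) and H2-D1 at 6121 and 4770 CPM (-0.36). The class II genes, which encode the peptide receptors shown to CD4+ T cells, were the 3 members past 2-fold. H2-Eb1 stood at 77.1 CPM (65.7 to 89.7) in control members, from 165 UMIs, and at 16.6 CPM in Zeb1 MSKO members, from 28 UMIs, a ratio of -2.15. H2-Ab1 stood at 129 CPM (115 to 146) and 54.5 CPM (43.9 to 66.8), a ratio of -1.23. H2-Aa stood at 46.7 and 21.9 CPM, a ratio of -1.06. The invariant chain Cd74 stood at 1113 and 606 CPM (-0.88) and was detected in 67.7% and 48.1% of members before thinning. In the non-endothelial barcodes these 4 genes ran the other way, with ratios of 0.92, 0.68, 0.92 and 0.43. In Ackr1-positive barcodes H2-Eb1 stood at 362 and 15.8 CPM. The second value lay near the floor for that group's 11 Zeb1 MSKO barcodes.

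Immediate early genes, which respond within minutes to stimuli including tissue dissociation, were higher in Zeb1 MSKO members for 16 of 16 genes measured at 20 CPM or more, with a median of 0.44 and 0 past 2-fold. In non-endothelial barcodes the list's median was 0.12 and in fibroblast-gated barcodes 0.24. Jun stood at 799 and 1118 CPM (0.48), Junb at 1166 and 1524 CPM (0.39) and Fos at 854 and 1002 CPM (0.23). Members at 9 weeks held more of each, with Fos at 2910 and 3133 CPM.

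The shear stress list had a median of 0.48 over 8 genes and the TGF-beta and BMP list 0.42 over 14. Klf4, a flow-induced factor, stood at 373 CPM (347 to 399) and 642 CPM (605 to 682), a ratio of 0.78, against 0.02 in non-endothelial barcodes. Klf2, its relative, stood at 376 and 564 CPM (0.58), against -0.68 there. Id1, a BMP target, stood at 62.1 and 132 CPM (1.08), against 2.22 there. The Notch effector Hes1 stood at 214 CPM (195 to 235) and 491 CPM (459 to 526), a ratio of 1.19, against 0.36 there and 0.72 in fibroblast-gated barcodes. With an endothelial threshold of 10 UMIs the ratios of Id1 and Hes1 in members were 0.62 and 0.69. The Notch list as a whole had a median of -0.12 over 6 genes. Whether dissociation had a part in these ratios was not tested.

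**Figure D4:**
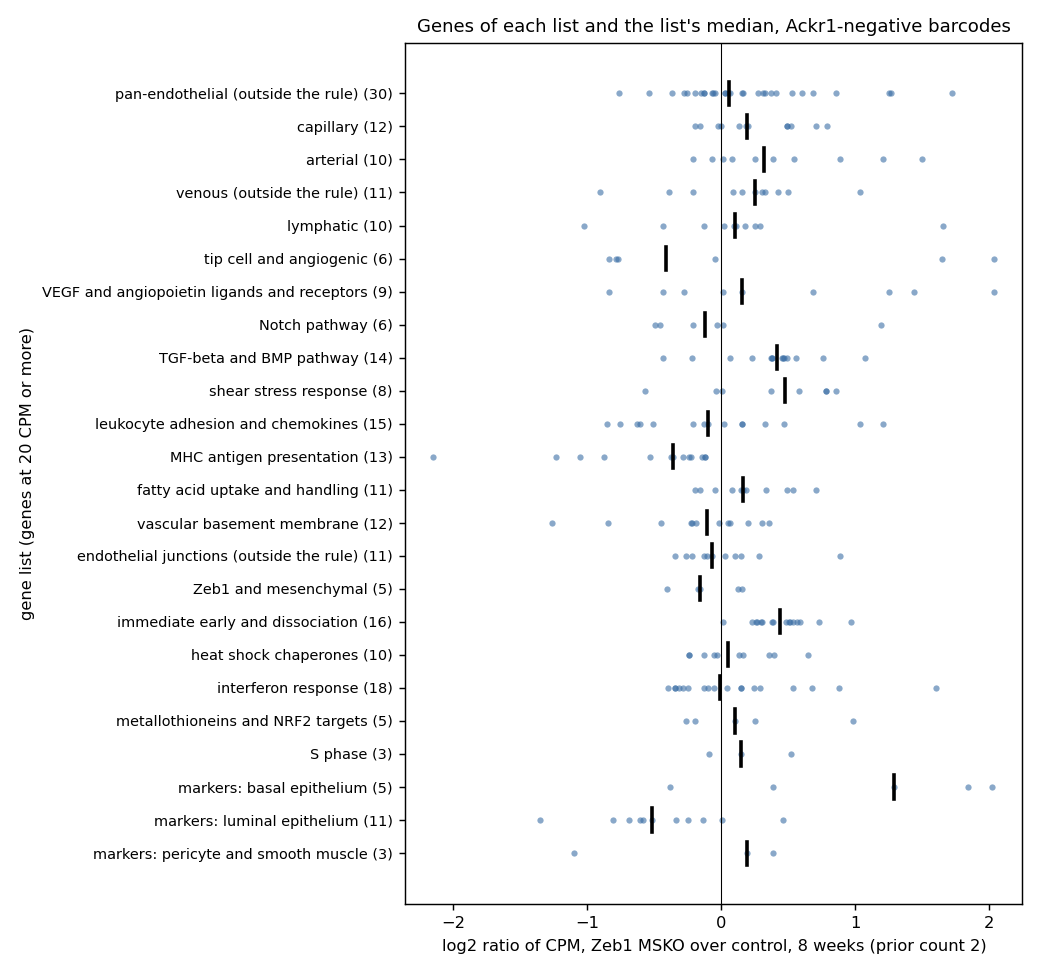
Each blue point is 1 gene at 20 CPM or more, placed by its log2 ratio of CPM, Zeb1 MSKO over control, in Ackr1-negative members at 8 weeks, grouped by gene list with the number of genes in brackets; black bars are list medians. The 13 antigen presentation genes lie left of 0 and the 16 immediate early genes right of it.

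Among genes at a mean of at least 50 CPM, the 3 highest ratios belonged to epithelial genes that were also higher in other barcodes of the same library. Slpi, a secreted protease inhibitor of epithelia, stood at 44.4 CPM (35.9 to 54.2) and 496 CPM (463 to 531) in members, a ratio of 3.45, against 1.97 in non-endothelial and 3.23 in fibroblast-gated barcodes. Krt14, a basal keratin, stood at 85.9 and 352 CPM (2.02), against 1.56 and 1.82. Krt17, another basal keratin, had 1.84, against 1.46 and 1.71. The 7 basal epithelial markers summed to 463 and 1009 CPM in members, and to 3165 and 6603 CPM in the non-endothelial barcodes under the collagen limit. The 11 luminal markers summed to 5161 and 4410 CPM, and to 26356 and 16623 CPM in the same comparator. Krt14 was detected in 16.0% and 59.9% of members. The part of these transcripts in the members' ratios was not tested.

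**Figure D5:**
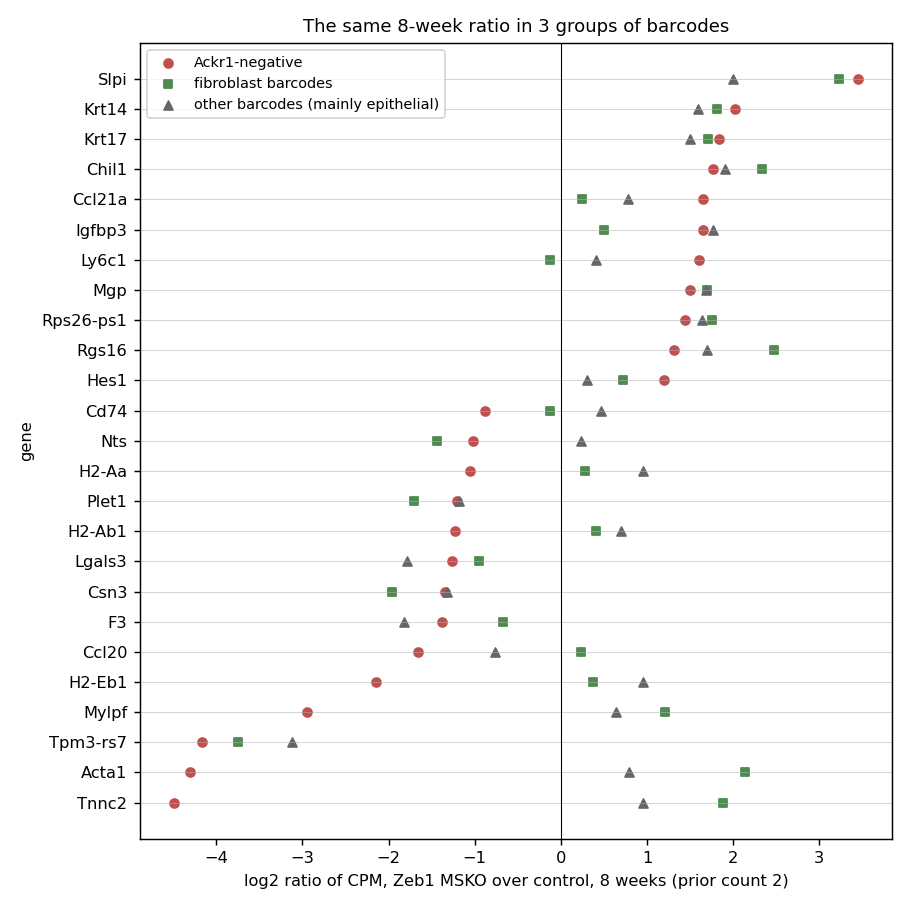
The log2 ratio of CPM, Zeb1 MSKO over control at 8 weeks (across), for 25 genes (rows) in Ackr1-negative, fibroblast-gated and other barcodes (colours and shapes). Slpi, Krt14 and Krt17 lie to the right in all 3, while H2-Eb1, at -2.15 in the members, lies to the right of 0 in the others.

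Several of the lowest ratios rested on single barcodes or on the whole library. The skeletal muscle genes Acta1, Mylpf and Tnnc2 had ratios of -4.31, -2.94 and -4.49. A single control barcode held 588 of the 595 Acta1 UMIs, 203 of 210 for Mylpf and 299 of 304 for Tnnc2. Without called doublets and barcodes over 10% mitochondrial counts the 3 ratios were 1.24, 1.59 and 1.20. Tpm3-rs7, a tropomyosin-related sequence (GRCm38 chromosome 14, 113314608 to 113316754, plus strand), stood at 187 CPM in control members and 9.47 CPM in Zeb1 MSKO members. It was detected in 70.3% and 5.23% of them before thinning. Its ratio of -4.16 stood beside -3.16 in non-endothelial and -3.75 in fibroblast-gated barcodes. At 9 weeks members held 0 UMIs of it, and non-endothelial barcodes 3.29 and 2.12 CPM. The chemokine Ccl20 had a ratio of -1.66, with 287 of 558 control UMIs in 1 barcode, and 0.59 with an endothelial threshold of 10 UMIs.

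Across libraries, the genotype was tested with edgeR's quasi-likelihood test on the summed counts of the 3 libraries with at least 10 members, so Zeb1 MSKO had 1 library, against control libraries of both ages. In this fit the genotype cannot be told apart from age and vessel type, and the calls say nothing of genotype alone. Of 9774 genes, 7 (0.0716%) passed an adjusted p of 0.05, all with a lower fitted level in Zeb1 MSKO. They were Gkn3, Mgp, Esm1, Il6, Hrct1, Dlk1 and Tnnt3. The matrix protein gene Mgp stood at 32.7 and 4968 CPM in the control libraries at 8 and 9 weeks and 94.1 CPM in Zeb1 MSKO at 8 weeks (log2 fold change -4.48 ± 0.81 (approximate SE), edgeR adjusted p 0.000152). Zeb1 MSKO was thus below 1 of 2 control libraries for Mgp, and above control at 8 weeks. Gkn3, known from arterial endothelium, stood at 0 and 1180 CPM in the control libraries, at 1.18 CPM in Zeb1 MSKO at 8 weeks (edgeR adjusted p 1.79e-05), and at 641 CPM in the Zeb1 MSKO library at 9 weeks that the fit left out. For Gkn3, Mgp, Esm1, Il6 and Hrct1 the control library at 9 weeks, with its 12 blood vascular members, held the high value. Dlk1 and Tnnt3 counts of the control library at 8 weeks, 31 and 161, all lay in 1 barcode each. Other fits gave other counts. With edgeR 4 genes passed without a filter on low counts, 0 without called doublets and barcodes over 10% mitochondrial counts (17 at an unadjusted p under 0.05), and 0 with an endothelial threshold of 10 UMIs (73). DESeq2 gave 0 (25), and edgeR on all 4 libraries gave 0 (20). With all 4 libraries and age as a replicate block 16 genes passed, 6 higher and 10 lower, and without control replicate 2 18 passed. The fit on 3 libraries had 110 genes at an unadjusted p under 0.05.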

How the data were processed

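The measured values were counts of unique molecular identifiers (UMIs) per gene and barcode from the 10x Chromium 3′ v2 kit. The deposited matrix holds these raw counts for 27998 genes and 36884 barcodes, which the authors produced with Cell Ranger 2.1.0 on mm10, per the submitters' processing notes. Any equalizing of depth between libraries is not stated in the sources used here. The barcode suffix named the library, and total counts per library were 80853204 to 122122443 UMIs. The labels do not tie libraries to animals, and the p-values thus reflect only how much these libraries vary, part of which may be technical.

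Members were found by the rule given above, and non-endothelial barcodes were those under its UMI threshold. Non-endothelial barcodes over the collagen limit of 30 per 10000 were called fibroblast-gated. Counts were summed per library and group of barcodes and scaled to CPM, and ratios used a prior count of 2. Shares of barcodes with a UMI were compared after thinning every barcode to 2500 UMIs in the Marco split and against non-endothelial barcodes. The genotype shares of Nts, Cd74 and Tpm3-rs7 at 8 weeks were taken before thinning. Control members were the deeper there, at a median of 5694 against 4695 UMIs, so those shares hold a difference in depth. Doublets were scored against simulated doublets (50 neighbours, 30 components, 2000 variable genes, assumed rate 8%) and were kept, with their removal, together with barcodes over 10% mitochondrial counts, as an alternative. Genotype across libraries was tested with edgeR 4.0.16 (quasi-likelihood test, TMM scaling, default filter on low counts, Benjamini-Hochberg adjustment, threshold 0.05) on libraries with at least 10 members, with DESeq2 1.42.0 as an alternative. The edgeR step was tested on simulated counts, in which the libraries shared a common gene profile apart from the genes changed. These counts held no difference of age or vessel type, so they do not check the fit for such differences. R 4.3.3 and Python 3.11.15 were used. Gene coordinates are from GENCODE vM21.

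Named genes were the 20 highest ratios over non-endothelial barcodes (mean of at least 100 CPM in 8-week members, past 4-fold in every library used). The 10 highest and 10 lowest genotype ratios at 8 weeks (mean of at least 50 CPM and 50 UMIs) were named as well. Further named genes were the list genes past 2-fold, the called genes, and the 10 highest and lowest against Ackr1-positive barcodes. From each list, members of high mean level were added. Zeb1, the genes of the Marco split, the scavenger receptors, Klf2 and Flt4 were named after their values were seen. The members, the 30 gene lists (371 of 372 genes in the table) and the rules were chosen with earlier results of these data known. The alternatives were other UMI thresholds, thinning, scaling, prior counts, filters, doublet removal and leaving out libraries.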

Additional observations from a re-analysis of the deposited data

Results flagged for a closer look

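For 9 gene lists the summed level in Ackr1-negative members moved in opposite directions at the 2 ages, each beyond its counting error. The difference between ages was not tested, each age has 1 library per genotype, and the 9-week libraries held 12 and 7 members. Counting error leaves out the spread between barcodes. The values are log2 ratios of summed CPM, Zeb1 MSKO over control, first at 8 and then at 9 weeks. Endothelial lists differed in this way for lymphatic genes (-0.088 and 7.49), where the 9-week value compares 1 lymphatic barcode in Zeb1 MSKO, a called doublet, with none in control. Junction genes outside the rule had -0.049 and 0.88, shear stress genes 0.43 and -0.45, and Zeb1 and mesenchymal genes -0.15 and 0.94. Response lists differed for interferon genes (0.13 and -0.18) and for metallothioneins and NRF2 targets (0.61 and -1.65). Genes of G2 and M phase had -0.37 and 1.90, the second from 4 UMIs in control and 11 in Zeb1 MSKO. Among marker lists of other cells, basal epithelial genes had 1.12 and -4.31, and pericyte and smooth muscle genes 0.24 and -1.63. At 9 weeks the basal list held 135 UMIs in control and 5 in Zeb1 MSKO, and the pericyte list 88 and 21.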

How the results depend on the processing

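The difference in member share kept its sign under 4 other gates (-0.0522 with 4 UMIs to -0.347 with 10). Leaving out 1 library gave -1.68 to 1.36 percentage points, positive without control replicate 1 (1.36) or Zeb1 MSKO replicate 2 (1.28). Each such value sets 1 age of a genotype against the mean of both ages of the other. Within an age Zeb1 MSKO had the lower share, 2.96% against 3.20% at 8 weeks and 0.0716% against 0.157% at 9 weeks. The 7 genes called across 3 libraries became 4 without a filter on low counts, and 0 with DESeq2, without called doublets and barcodes over 10% mitochondrial counts (removed together throughout), with a threshold of 10 UMIs and with all 4 libraries. Leaving out 1 library of the 4 gave 0 to 18 genes. The replicate number in the labels stands for age, and 9 against 8 week deviations of the genotypes were correlated (Pearson r 0.297 across 9774 genes, 2 pairs only). With all 4 libraries and age as a replicate block 16 genes were called, 6 higher and 10 lower. The planned block and leave-one-out fits on 3 libraries left no residual degrees of freedom and were not run. At 8 weeks, 46 higher genes became 83 with a threshold of 10 UMIs and 13 at a mean of 100 CPM, and 33 lower genes became 59 after thinning and 12 at 100 CPM. Acta1, Mylpf, Tnnc2 and Plet1 reversed to 1.24, 1.59, 1.20 and 0.031 without called doublets and high-mitochondrial barcodes, Ccl20 and Rgs5 to 0.59 and 0.22 with a threshold of 10 UMIs, and Flt1 to -0.024 after thinning. Against non-endothelial barcodes the 88 higher genes were 91 to 183 with 1 library left out, 183 without control replicate 2. The 4 lower genes were 6 to 18 with 1 library left out, 18 without Zeb1 MSKO replicate 1 and 12 without control replicate 2, and 9 without called doublets and high-mitochondrial barcodes. Against Ackr1-positive barcodes, 48 higher and 59 lower genes became 260 and 162 with positives from 3 UMIs, and 73 and 89 after thinning. The 9-week members, 12 and 7, limit every 9-week value. Except where fewer genes or barcodes entered, the cause of these shifts was not tested. Over all alternatives at 8 weeks, list medians moved by less than their counting error in 99 cases and by more in 21, and values of named genes in 138 and 30, beside the 7 reversals above.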

Other observations

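Antigen presentation and fatty acid handling set the 2 ages of Ackr1-negative members apart as well. The antigen presentation list summed to 26222 and 22044 CPM at 8 weeks and to 12007 and 11518 CPM at 9 weeks, in the order control and Zeb1 MSKO. B2m stood at 12986 and 11736 CPM at 8 weeks and at 5112 and 4967 CPM at 9 weeks. The fatty acid list, genes of uptake and transport, summed to 3432 and 3342 CPM at 8 weeks and to 13973 and 17002 CPM at 9 weeks. The vascular basement membrane list summed to 1490 and 1428 CPM and to 5165 and 4486 CPM. The G2 and M phase list summed to 170 and 132 CPM in members at 8 weeks, and to 410 and 341 CPM in the non-endothelial barcodes under the collagen limit. By the counts above, most 8-week members were lymphatic only and nearly all 9-week members were blood vascular only. Age, preparation and vessel type cannot be told apart in these values.

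Transcripts known from lymph node vessels were detected at 8 weeks, and the sources used here do not say whether a lymph node was removed from the gland. Madcam1, the mucosal addressin also found on lymph node endothelium, stood at 126 and 123 CPM at 8 weeks and had 0 UMIs at 9 weeks. Glycam1 in non-endothelial barcodes was at 56.7 and 52.7 CPM at 8 weeks and at 0.342 and 0.213 CPM at 9 weeks.

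Rps26-ps1, a ribosomal protein pseudogene, was higher in Zeb1 MSKO in every group of barcodes at 8 weeks, with log2 ratios of 1.44 in members, 1.64 in non-endothelial and 1.75 in fibroblast-gated barcodes. Its level in non-endothelial barcodes was 94.6, 294, 65.4 and 270 CPM in the 4 libraries, in the order used above, so that both Zeb1 MSKO libraries were above both controls.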
